A study of Homo sapiens with 12 samples.

Results

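The respiratory chain of the mitochondrial inner membrane is built from proteins of 2 genomes, and 47 of its genes are described here across cells with and without hairpins against FMOD. The members were taken by symbol from the 61044 rows of the deposited gene table. They are the 13 genes of mitochondrial DNA that encode proteins and 34 nuclear genes of complex I with an NDUF symbol, and all 47 were found and passed the filter on low counts.

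Complex I takes electrons from NADH, complexes III and IV pass them on to oxygen, and the ATP synthase uses the proton gradient that results. Mitochondrial DNA encodes 7 subunits of complex I, 1 of complex III, 3 of complex IV and 2 of the ATP synthase. It is transcribed from both strands as long RNAs that are cut at the tRNAs between the genes, so that levels of single messengers also depend on cutting and stability. All other subunits are made from nuclear genes, and the parts of complex I that bind NADH and carry electrons along the peripheral arm are among them.

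The cells were SCC-15, an established line from a human oral squamous cell carcinoma. The cells carried a hairpin RNA, either a negative control (NC) or one against FMOD, which encodes the matrix proteoglycan fibromodulin, and the 3 different FMOD hairpins are called shRNA1, shRNA2 and shRNA3. Cells were harvested at 48 hours, and each group has 3 libraries, 12 in all. All groups are the same line with a hairpin, no untreated cells are in the comparison, and the labels do not say that libraries of a group came from separate cultures, so the p-values measure the spread between libraries, which may be technical.

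Library totals lay between 17287017 and 19567289 counts. FMOD itself had 2, 2 and 3 counts in the NC libraries and 0 in the 9 hairpin libraries, all at or under the floor of 3 counts, so it gives little check of the labels. The 10 squamous epithelial markers averaged at least 1 CPM (counts scaled to library size and by TMM, edgeR's factor for library composition), and their sum lay between 2641 and 2811 CPM with NC, 2044 and 2382 with shRNA1, 2383 and 2443 with shRNA2, and 2153 and 3318 with shRNA3. Of the fibroblast list 3 of 8 genes averaged at least 1 CPM, of the leukocyte list 2 of 6 and of the endothelial list 2 of 4, while COL3A1, DCN, PDGFRA, THY1, PTPRC, CD3E, LYZ and KDR were under 1 CPM in every library. The fibroblast list summed to 56.8 to 59.7 CPM with NC, 15.6 to 21.7 with shRNA1, 44.2 to 48.2 with shRNA2 and 33.1 to 86.6 with shRNA3. The leukocyte list summed to 58.7 to 76.3, 44.5 to 97.7, 81.7 to 87.9 and 109.9 to 236 CPM in the same order, and the endothelial list to 17.6 to 23.1, 3.88 to 5.88, 6.86 to 8.45 and 8.67 to 13.3 CPM. Of the endothelial genes PECAM1 had log2 fold changes against NC of 4.21, 5.08 and 5.96 with shRNA1, shRNA2 and shRNA3. Those of CDH5 were -3.15, -2.77 and -3.62, and those of VWF -2.81, -2.55 and -1.89. Of the 4 tested fibroblast genes 3 fell with all 3 hairpins (edgeR adjusted p under 0.05), and the other only with shRNA1. In the same hairpin order COL1A2 had -6.03, -9.47 and -7.42. LUM had -7.41, -4.70 and -7.41, and PDGFRB -3.79, -3.28 and -3.87. Of the 2 tested leukocyte genes CD14 fell with all 3, at -2.36, -1.17 and -2.40. The other passed only with shRNA3, where it rose by 1.595. Libraries 1 and 2 of shRNA3 stood apart from library 3 and from the other groups: their TMM scaling factors were 0.771 and 0.794, against 1.06 for library 3. Values are therefore given per library, and results that rest on these libraries also without them. Without them the shRNA3 group is a single library, assumed to vary like the other groups. Single squamous markers moved in both directions. With shRNA1, shRNA2 and shRNA3 the log2 fold changes were -5.56, -3.65 and -3.75 for KRT5 and -3.08, -2.59 and -2.29 for CDH1. For KRT14 they were 2.87, 1.69 and 4.30 (1.76 with shRNA3 without libraries 1 and 2). Of the 10, 4, 5 and 6 rose and 2, 3 and 3 fell at an edgeR adjusted p under 0.05. Of all tested genes 26.8%, 24.6% and 26.4% rose and 30.6%, 28.4% and 27.6% fell. The part of the marker lists and of this split in the results was not tested.

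The mitochondrial genes lie close together, and MT-ATP8 and MT-ATP6 share 46 bases (chrM:8527-8572 on GRCh38), so that reads from these bases cannot be given to either gene. MT-ND4L and MT-ND4 share 7 bases (chrM:10760-10766). Both stretches are shown with 10 bases on each side, with the shared bases in capitals, because counts of these gene pairs are uncertain there.
MT-ATP8 and MT-ATP6: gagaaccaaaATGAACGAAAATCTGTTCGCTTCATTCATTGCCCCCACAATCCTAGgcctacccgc
MT-ND4L and MT-ND4: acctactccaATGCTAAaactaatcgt

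Of the nuclear members, 22 of 34 share exonic bases with another annotated gene, and in 17 the other gene lies on the opposite strand. Whether strand was used in counting is unstated in the sources used here, so reads of such partners cannot be told apart. Nuclear copies of mitochondrial genes took few counts beside the genes themselves: MTATP6P1 held 3.62% to 7.01% of the level of MT-ATP6 across libraries, and MTCO1P12 1.25% to 2.08% of that of MT-CO1. Processed copies of nuclear members held at most 1.99% of the member's level, for NDUFV2.

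Per length, the mitochondrial messengers were far more abundant than the nuclear ones. The median of the 13 genes, in counts per exonic kilobase scaled to the same total in each library (TPM), was 33.5 ± 6.95 times the median of the 34 nuclear genes with NC (SD, n = 3). It was 37.5 ± 3.68 times with shRNA1, 45.7 ± 1.40 times with shRNA2 and 22.3 ± 13.7 times with shRNA3. The shRNA3 libraries were split, at 14.3 and 14.5 times in libraries 1 and 2 and 38.1 times in library 3. With the longest annotated transcript as the length, the ratio was 21.2 ± 4.08 with NC and 12.9 ± 6.99 with shRNA3. It was 20.7 ± 1.24 with shRNA1 and 22.6 ± 1.07 with shRNA2, and all libraries of these hairpins lay within the NC range. The higher values with shRNA1 and shRNA2 thus depended on the length used. MT-CO1, the catalytic subunit of complex IV, was the highest with NC at 8358 TPM, and MT-ATP8, a small subunit of the ATP synthase whose count is uncertain, the lowest of the 13 at 430 TPM. Among nuclear members, mean levels with NC ran from 12.8 TPM for NDUFB1 to 540 TPM for NDUFS5, both small accessory subunits.

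The sums of both gene groups were compared in each library, since their ratio does not depend on scaling between libraries. The mitochondrial sum covers subunits of complexes I, III and IV and of the ATP synthase, and the nuclear sum those of complex I only. The 13 mitochondrial genes summed to 4.80, 6.03 and 6.20 times the 34 nuclear genes in the NC libraries. The ratio was 5.18, 5.05 and 5.91 with shRNA1 and 6.90, 7.32 and 6.86 with shRNA2. It was 4.07, 3.62 and 6.53 with shRNA3. The shRNA2 libraries all lay above all NC libraries, the shRNA1 libraries lay within the NC range, and those of shRNA3 fell on both sides of it. Group means were 5.67 ± 0.766 (NC), 5.38 ± 0.460 (shRNA1), 7.02 ± 0.259 (shRNA2) and 4.74 ± 1.57 (shRNA3; SD, n = 3 each). In shRNA3 libraries 1 and 2 both terms differed from library 3: the mitochondrial sums were 13470 and 12990 against 15520 CPM, and the nuclear sums 3313 and 3592 against 2378 CPM. As shares of all counts of the library, with no TMM factor, the mitochondrial sums were 1.04% and 1.03% against 1.65%, and the nuclear sums 0.256% and 0.285% against 0.253%, so the split of the nuclear sums depended on the scaling. With only the complex I genes of mitochondrial DNA over the same nuclear sum, the ratio was 2.043, 2.389 and 2.662 with NC. It was 1.665, 1.628 and 1.979 with shRNA1, 2.37, 2.489 and 2.297 with shRNA2, and 1.544, 1.417 and 2.008 with shRNA3. All shRNA1 and shRNA3 libraries then lay below all NC libraries, and the shRNA2 libraries lay within the NC range. In bulk RNA, fewer mitochondria or cells and less RNA in each cannot be told apart.

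**Figure D1:**
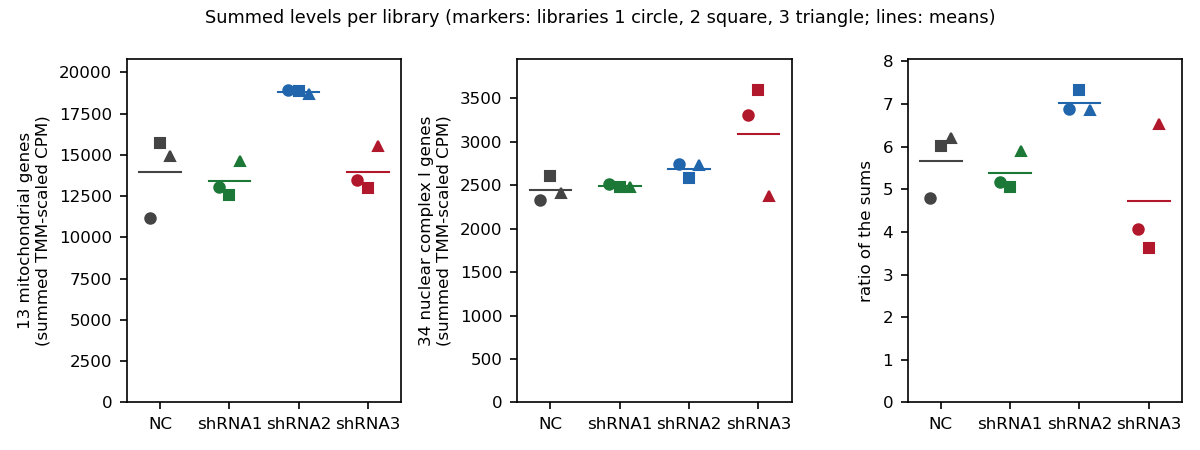
Summed TMM-scaled CPM of the 13 mitochondrial genes (left) and the 34 nuclear complex I genes (middle), and the ratio of the sums (right), for each library of the 4 groups; short lines are group means and all axes start at 0. The 3 shRNA2 libraries have ratios of 6.86 to 7.32, and shRNA3 libraries 1 and 2 have the lowest ratios, 4.07 and 3.62.

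Each hairpin was compared with NC by edgeR's quasi-likelihood test over all tested genes, and a gene was called at a Benjamini-Hochberg adjusted p under 0.05. Few mitochondrial genes were called with the full set of libraries. With shRNA1, 0 of 13 rose, 2 fell and 11 were not called, where 57.4% of all tested genes were called. With shRNA2, 3 rose, 1 fell and 9 were not called, against 53.0% of all genes. With shRNA3, 0 rose, 2 fell and 11 were not called, against 53.9% of all genes. No mitochondrial gene was called with all 3 hairpins, while 35.7% of all tested genes were called with all 3 in 1 direction. At an unadjusted p under 0.05 the counts were 4, 5 and 4, and by DESeq2's Wald test with adjustment 3, 4 and 5.

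All groups share 1 dispersion per gene in this fit, and the counts moved with the shRNA3 libraries in it. When shRNA3 libraries 1 and 2 were left out, 2 mitochondrial genes rose and 6 fell with shRNA1, 6 rose and 2 fell with shRNA2, and 3 rose and 4 fell with shRNA3, where 71.3%, 68.1% and 56.9% of all genes tested in that fit were called. When shRNA3 library 3 was left out instead, the counts were 2 and 6, 6 and 2, and 2 and 7. In that fit 73.1%, 70.2% and 73.1% of all tested genes were called. In a fit of only the libraries compared, 6, 7 and 0 of the 13 were called, beside 71.8%, 79.2% and 43.4% of all genes. The median log2 fold change of the 13 genes was -0.01 with shRNA1, 0.19 with shRNA2 and -0.44 with shRNA3, beside -0.02, -0.05 and -0.03 over all tested genes. Without shRNA3 libraries 1 and 2 the shRNA3 median was 0.03, beside -0.09 over all genes, and by library totals it was -0.76. Scaling by library totals moved the median of all genes to -0.10, -0.18 and -0.35, and the share of higher genes among those called from 46.7% to 40.9%, 46.4% to 38.5% and 48.9% to 35.1%.

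**Figure D2:**
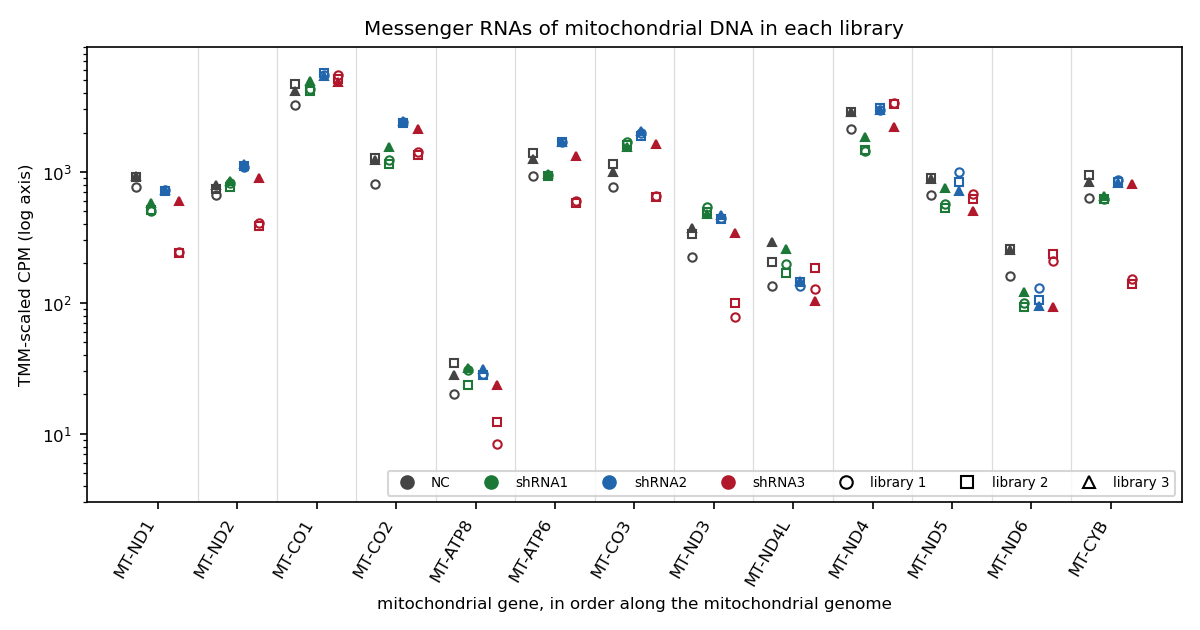
TMM-scaled CPM on a log axis of the 13 mitochondrial genes in their order along the genome, with 1 point per library; colours are groups and marker shapes libraries 1 to 3, and library 3 is filled. For MT-CYB, shRNA3 libraries 1 and 2 lie at 152 and 141 CPM, while all other libraries are between 623 and 955 CPM.

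Among the complex I subunits of mitochondrial DNA, which form part of the membrane arm that pumps protons, MT-ND1 had 772, 915 and 932 CPM with NC and 507, 516 and 580 CPM with shRNA1. It had 733, 716 and 730 CPM with shRNA2 and 243, 241 and 603 CPM with shRNA3. All 9 hairpin libraries were below all 3 NC libraries, the only mitochondrial gene for which that held, 7.69% of the 13 where 44.8% of all tested genes had no overlap between the 9 and the 3. MT-ND1 was called lower only with shRNA3, where its log2 fold change was -1.27 ± 0.30 (SE, adjusted p = 0.0041), beside -0.71 ± 0.30 (adjusted p = 0.061) with shRNA1 and -0.27 ± 0.30 (adjusted p = 0.48) with shRNA2. Without shRNA3 libraries 1 and 2 the log2 fold changes were -0.69, -0.25 and -0.51 and all 3 were called. In a fit of only shRNA3 and NC the value was -1.21 and was not called (adjusted p = 0.0504).

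MT-ND6 is the only member of the 13 that is read from the other strand of mitochondrial DNA. It had 160, 258 and 254 CPM with NC, 99.8, 93.4 and 121 with shRNA1, 129, 106 and 95.2 with shRNA2, and 207, 235 and 92.4 with shRNA3. The shRNA1 and shRNA2 libraries and shRNA3 library 3 were below every NC library, and shRNA3 libraries 1 and 2 were within the NC range. MT-ND6 fell by 1.1 ± 0.31 on the log2 scale with shRNA1 (SE, adjusted p = 0.0098) and by 1.02 ± 0.31 with shRNA2 (adjusted p = 0.015), and its change with shRNA3 was -0.33 ± 0.30 (adjusted p = 0.38). With libraries 1 and 2 of shRNA3 left out, its log2 fold change there was -1.25. With scaling by library totals MT-ND6 was called with all 3 hairpins. Its value with shRNA3 was then -0.74, where the median of all tested genes was -0.35. The call with shRNA2 was lost when NC library 2, NC library 3 or shRNA2 library 3 was left out.

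MT-ND4, a proton-pumping subunit, had 2118, 2868 and 2884 CPM with NC and 1453, 1465 and 1854 with shRNA1. It had 2980, 3056 and 2964 CPM with shRNA2 and 3376, 3316 and 2220 with shRNA3. The shRNA1 libraries were below all NC and all other hairpin libraries. MT-ND4 fell by 0.72 ± 0.20 on the log2 scale with shRNA1 against NC (SE, adjusted p = 0.0097), by 0.92 ± 0.20 against shRNA2 (adjusted p = 0.016) and by 0.90 ± 0.20 against shRNA3 (adjusted p = 0.011). The call against shRNA3 was lost in a fit of only these 2 groups (adjusted p = 0.127) and without shRNA3 libraries 1 and 2 (-0.50, adjusted p = 0.0999). The value with shRNA3 against NC was 0.18, and it changed sign, to -0.19 with scaling by library totals and to -0.21 without these libraries.

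MT-ND3, a small membrane subunit, had 224, 336 and 373 CPM with NC, 539, 495 and 478 with shRNA1, and 444, 440 and 466 with shRNA2. With shRNA3 it had 78.6, 100 and 345 CPM. The shRNA1 and shRNA2 libraries were above all NC libraries and shRNA3 libraries 1 and 2 below them. No hairpin passed the test against NC, and MT-ND3 was higher with shRNA1 than with shRNA3 by 1.53 ± 0.45 on the log2 scale (SE, adjusted p = 0.028). That difference was not called in a fit of the 2 groups alone (adjusted p = 0.148) or without shRNA3 libraries 1 and 2, where no mitochondrial gene was called between shRNA1 and shRNA3. The other complex I members of mitochondrial DNA, MT-ND2, MT-ND4L and MT-ND5, were not called with any hairpin and had log2 fold changes from -0.60 to 0.60. All 3 of these genes were called with shRNA3, once its libraries 1 and 2 were left out, at 0.33, -1.0 and -0.66.

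MT-CYB, the cytochrome b of complex III, was spread widely within shRNA3. It had 629, 955 and 835 CPM with NC, 623, 625 and 660 with shRNA1, and 862, 833 and 821 with shRNA2. With shRNA3 it had 152, 141 and 807 CPM. Library 3 of shRNA3 was inside the NC range and libraries 1 and 2 were below every other library. MT-CYB was not called with any hairpin, and its log2 fold change with shRNA3 was -1.14 ± 0.53 (SE, adjusted p = 0.093), 0.03 without libraries 1 and 2, and -2.47 without library 3.

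The 3 complex IV genes of mitochondrial DNA all rose with shRNA2 in the full fit. Of these 3 calls, 1 was kept without NC library 1 and 1 without NC library 3. With any 1 shRNA2 library left out, 2 were kept. MT-CO2, the subunit that receives electrons from cytochrome c, had 814, 1274 and 1227 CPM with NC and 2410, 2350 and 2430 with shRNA2. It had 1229, 1150 and 1547 CPM with shRNA1 and 1422, 1354 and 2129 with shRNA3. The shRNA2 libraries were above all others. MT-CO2 was higher with shRNA2 than with NC by 1.12 ± 0.23 on the log2 scale (SE, adjusted p = 0.0015), and lower with shRNA1 than with shRNA2 by 0.87 ± 0.23 (adjusted p = 0.030). Its value with shRNA3 was 0.57 (adjusted p = 0.0512), and 0.97 and called without libraries 1 and 2.

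MT-CO3, a core membrane subunit, had 774, 1160 and 1003 CPM with NC, 1684, 1620 and 1558 with shRNA1, and 1971, 1895 and 2037 with shRNA2. With shRNA3 it had 655, 646 and 1640 CPM. Libraries of shRNA1 and shRNA2 and shRNA3 library 3 were above all NC libraries, and shRNA3 libraries 1 and 2 below them. It rose with shRNA2 by 1.01 ± 0.32 on the log2 scale (SE, adjusted p = 0.019), its change with shRNA1 was 0.73 ± 0.32 (adjusted p = 0.068), and with shRNA3 it was 0.00 ± 0.31. All 3 were called, without libraries 1 and 2 of shRNA3, at 0.74, 1.02 and 0.77. MT-CO1 rose with shRNA2 by 0.45 ± 0.17 (adjusted p = 0.042), from 4028 ± 731 to 5519 ± 132 CPM (SD, n = 3), and the call was lost with scaling by library totals, as was that of MT-CO3.

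Of the ATP synthase genes of mitochondrial DNA, MT-ATP6, the subunit of the proton channel, was not called. It had 936, 1390 and 1246 CPM with NC, 956, 932 and 961 with shRNA1, 1680, 1689 and 1700 with shRNA2, and 600, 584 and 1326 with shRNA3. The shRNA2 libraries were above all NC libraries. Without shRNA3 libraries 1 and 2 MT-ATP6 was called with shRNA1 (-0.31) and shRNA2 (0.52), and its value with shRNA3 went from -0.51 to 0.18, not called in either fit. MT-ATP8 fell with shRNA3 by 0.90 ± 0.33 on the log2 scale (SE, adjusted p = 0.039), from 27.7 ± 7.34 to 14.8 ± 8.02 CPM (SD, n = 3), and the call ended without libraries 1 and 2, where the value was -0.19.

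Within shRNA3 the genes did not differ between libraries by a common factor. Library 3 over the mean of libraries 1 and 2, in TMM-scaled CPM, was 5.52 for MT-CYB, 3.86 for MT-ND3, 2.52 for MT-CO3 and 2.49 for MT-ND1. It was 0.90 for MT-CO1, 0.66 for MT-ND4 and MT-ND4L, 0.78 for MT-ND5 and 0.42 for MT-ND6. At least 2-fold higher in library 3 were 7 of 13 mitochondrial genes (53.8%) and 0 of 34 nuclear members, against 18.3% of all tested genes. By library totals these counts were 8 and 1, and MT-CO1 (1.23) and MT-ND5 (1.06) were then above 1. Nuclear members above 1 were 6 of 34 in TMM-scaled CPM and 18 of 34 by library totals. The share of all tested genes by library totals is not given here. In TMM-scaled CPM 8 of 17 genes of the list for mitochondrial RNA processing and stability were at least 2-fold higher in library 3. Of the list for transcription and replication of mitochondrial DNA 7 of 15 were. Their part in the split of the mitochondrial genes was not tested.

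**Figure D3:**
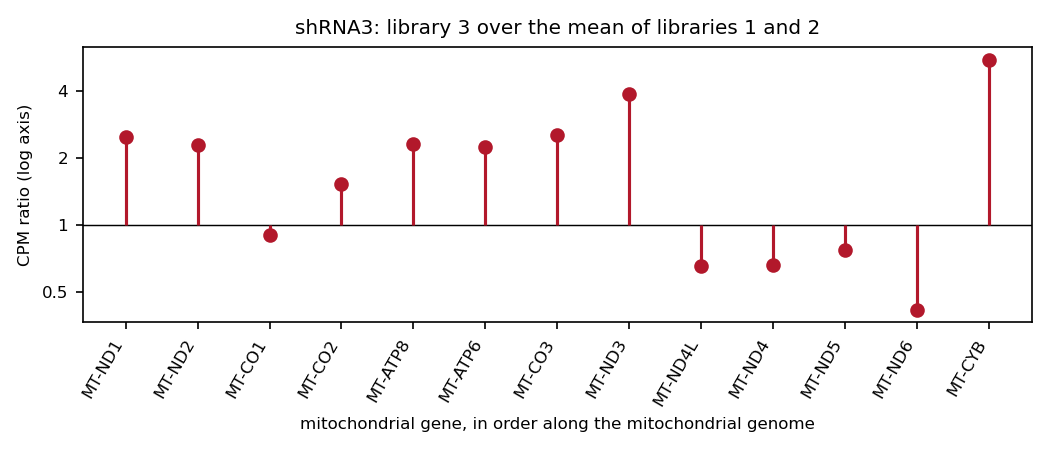
Ratio of TMM-scaled CPM in shRNA3 library 3 to the mean of shRNA3 libraries 1 and 2, on a log axis, for the 13 mitochondrial genes in their order along the genome. Neighbouring genes differ, from 5.52 for MT-CYB to 0.42 for MT-ND6, and 7 genes are above 2.

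Each gene's share of the summed mitochondrial messengers shows the same split without any scaling between libraries. MT-CYB made up 5.64%, 6.08% and 5.60% of the sum in the NC libraries and 1.13%, 1.08% and 5.20% in those of shRNA3. MT-CO1 made up 28.9% ± 0.859 with NC (SD, n = 3) and 41.0%, 39.8% and 31.1% with shRNA3. MT-CO3 made up 7.01% ± 0.338 with NC, 12.2% ± 1.31 with shRNA1 and 10.5% ± 0.424 with shRNA2 (SD, n = 3). The MT-CO3 share with shRNA1 and shRNA2 was above every NC library, and so was that of shRNA3 library 3, at 10.6%. The share of MT-ND6 was 1.59% ± 0.140 with NC, 0.779% ± 0.0432 with shRNA1 and 0.584% ± 0.0886 with shRNA2.

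The ribosomal RNAs of the mitochondrion are transcribed from the same DNA, and both fell with shRNA1 and shRNA2. MT-RNR2, the large ribosomal RNA, had 7275, 7464 and 8574 CPM with NC, 2644, 2287 and 2536 with shRNA1, 2498, 2500 and 2379 with shRNA2, and 6756, 7165 and 2942 with shRNA3. The shRNA1 and shRNA2 libraries and shRNA3 library 3 were far below the NC libraries, and shRNA3 libraries 1 and 2 were near them. MT-RNR2 fell by 1.64 ± 0.28 on the log2 scale with shRNA1 (SE, adjusted p = 0.00044) and by 1.66 ± 0.28 with shRNA2 (adjusted p = 0.00044), and MT-RNR1, the small one, by 1.34 ± 0.32 (adjusted p = 0.0040) and 1.65 ± 0.32 (adjusted p = 0.0012). Neither was called with shRNA3 in the full fit, at -0.47 (adjusted p = 0.17) and -0.79 (adjusted p = 0.0539). Without libraries 1 and 2 both were, at -1.37 for MT-RNR2 and -1.41 for MT-RNR1. The 13 messengers summed to 1.27, 1.84 and 1.50 times both ribosomal RNAs with NC, 4.01, 4.49 and 4.92 times with shRNA1, 6.03, 6.76 and 6.94 times with shRNA2, and 1.75, 1.62 and 4.53 times with shRNA3. Whether libraries were selected for poly(A) or depleted of ribosomal RNA is not given in the sources used here, and the part of that step in this ratio was not tested.

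The nuclear complex I genes were called about as often as other genes, in both directions. With shRNA1, 10 of 34 rose, 8 fell and 16 were not called, with shRNA2 the counts were 13, 8 and 13, and with shRNA3 15, 6 and 13. Higher calls took 26.8%, 24.6% and 26.4% of all tested genes and lower calls 30.6%, 28.4% and 27.6%. The share of the members was above these for higher calls and below them for lower calls with each hairpin. Whether the shares differ was not tested. With all 3 hairpins 8 of 34 rose (16.0% of all tested genes) and 6 fell (19.7%). All 9 hairpin libraries were above all NC libraries for 13 members and below them for 8, together 61.8% of the 34, beside 44.8% of all tested genes. The median log2 fold change was 0.04 with shRNA1, 0.23 with shRNA2 and 0.27 with shRNA3. With scaling by library totals it was -0.05, 0.10 and -0.10, so its sign with shRNA1 and shRNA3 rested on the scaling. The median of all tested genes moved as well, from -0.02, -0.05 and -0.03 to -0.10, -0.18 and -0.35. The median of the members was above that of all genes with each hairpin under both scalings.

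**Figure D4:**
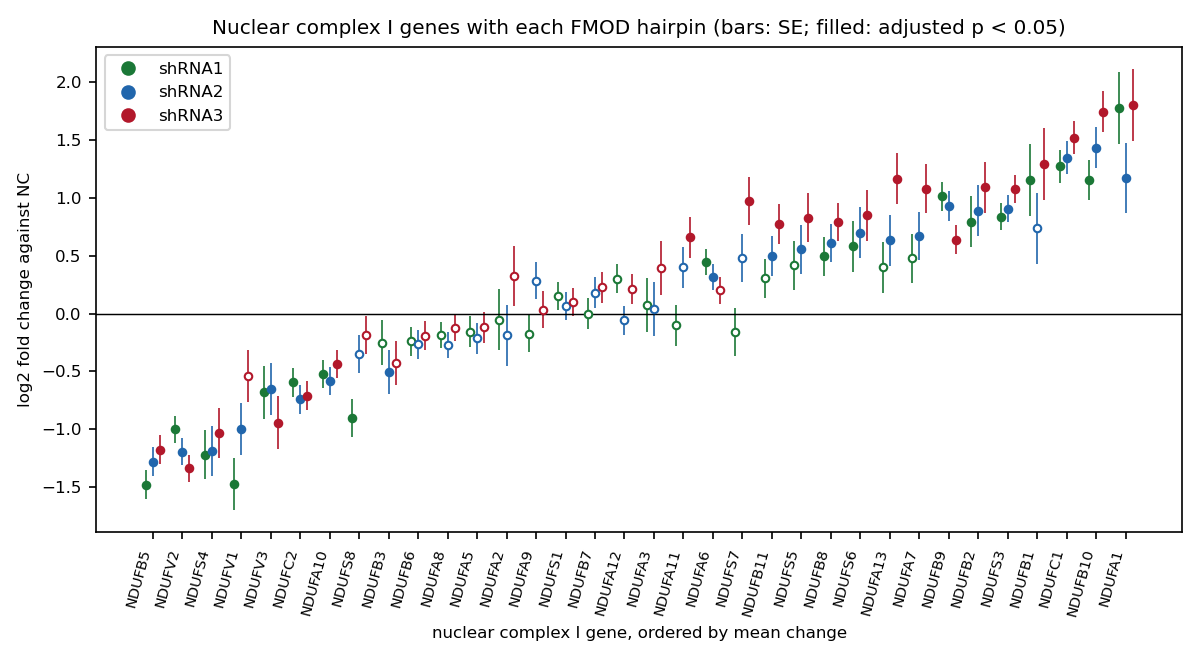
Log2 fold change against NC of the 34 nuclear complex I genes with each hairpin, ordered by their mean change; bars are standard errors and filled points have an adjusted p under 0.05. Genes from NDUFB5, at -1.48, -1.28 and -1.18, to NDUFA1, at 1.78, 1.17 and 1.80, form a continuous range with both signs.

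Of the promoters of the nuclear members, the RefSeq table (GRCh38.p14) holds 30 of 34, from 250 bases before to 50 after the start site. The upstream sequences of 4 genes are shown, as members that moved with all 3 hairpins in each direction: NDUFC1 and NDUFB10 rose with all 3 hairpins, and NDUFS4 and NDUFV2 fell. Bases of annotated exons were left out, and capitals mark GGGCGG on either strand, the letters searched for SP1. The NDUFB10 stretch ends 30 bases before the start site, and the match of this gene, at bases -18 to -13, lies outside it. The stretches are chr4:139302552-139302801 (NDUFC1, minus strand), chr16:1959288-1959507 (NDUFB10, plus strand), chr5:53560389-53560632 (NDUFS4, plus strand) and chr18:9102449-9102629 (NDUFV2, plus strand).
NDUFC1: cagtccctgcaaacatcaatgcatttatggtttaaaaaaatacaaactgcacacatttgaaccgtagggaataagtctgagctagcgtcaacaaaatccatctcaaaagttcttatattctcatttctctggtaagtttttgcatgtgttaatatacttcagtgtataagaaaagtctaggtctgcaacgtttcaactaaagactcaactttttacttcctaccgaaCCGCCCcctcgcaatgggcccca
NDUFB10: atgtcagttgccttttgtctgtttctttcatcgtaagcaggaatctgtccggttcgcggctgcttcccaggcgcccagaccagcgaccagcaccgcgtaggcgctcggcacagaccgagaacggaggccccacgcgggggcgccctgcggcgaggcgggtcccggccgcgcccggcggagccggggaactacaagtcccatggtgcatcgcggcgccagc
NDUFS4: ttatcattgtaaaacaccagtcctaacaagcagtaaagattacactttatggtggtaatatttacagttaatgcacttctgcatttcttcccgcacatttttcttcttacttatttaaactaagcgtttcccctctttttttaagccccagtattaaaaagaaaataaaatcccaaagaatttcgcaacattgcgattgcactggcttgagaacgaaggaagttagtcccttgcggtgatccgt
NDUFV2: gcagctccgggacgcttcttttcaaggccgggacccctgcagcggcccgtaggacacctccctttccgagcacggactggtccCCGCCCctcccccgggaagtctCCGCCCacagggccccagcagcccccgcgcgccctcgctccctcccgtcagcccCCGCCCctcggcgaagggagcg

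The letters GGGCGG stood in 66.7% of the 30 member promoters and in 44.6% of the 27305 promoters of the table. AANATGGC, searched for YY1 on both strands, stood in 12 of 30 member promoters (40.0%) and in 6.82% of all, and in 10 of the 30 (33.3%) it lay after the start site, against 2.9% of all. The NRF1 motif, searched by the letters of its consensus on both strands, stood in 16.7% of member promoters and 6.28% of all, and CCGGAAG, searched for ETS factors, in 16.7% and 10.7%. No motif contains the letters of another, and a promoter was counted once per motif. Of the members that rose with all 3 hairpins 7 had a promoter in the table, and 7 of 7 held GGGCGG, 3 of 7 AANATGGC, 2 of 7 CCGGAAG and 0 of 7 the NRF1 motif. Of those that fell, 4 had one, and the counts were 3 of 4, 2 of 4, 0 of 4 and 0 of 4. A match describes letters and shows no binding.

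Most NDUFV and NDUFS subunits sit in the peripheral arm, which holds the flavin and the iron-sulfur clusters. Of the 3 NDUFV genes 0 rose with any hairpin and 3, 3 and 2 fell with shRNA1, shRNA2 and shRNA3. Of the 7 NDUFS genes 2, 3 and 4 rose and 2, 1 and 1 fell. NDUFV2, an iron-sulfur subunit of the NADH-binding module, had 100, 120 and 123 CPM with NC. It had 57.0, 57.4 and 57.2 CPM with shRNA1, between 49.9 and 50.1 with shRNA2, and 42.9, 46.3 and 46.6 with shRNA3. The hairpin libraries did not overlap NC, and libraries 1 and 2 of shRNA3 did not stand apart. NDUFV2 fell by 1.0 ± 0.12, 1.19 ± 0.12 and 1.34 ± 0.12 on the log2 scale (SE), with an adjusted p of at most 2.8e-05. It shares 771 of its 2711 exonic bases with AP005263.1 on the same strand. NDUFV3, an accessory subunit of the same module, fell by 0.68, 0.65 and 0.94 with adjusted p of 0.024, 0.031 and 0.0047; it was not called with shRNA3 without libraries 1 and 2, nor with shRNA1 and shRNA2 under scaling by library totals.

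NDUFV1, the flavin subunit that binds NADH, had 246, 264 and 252 CPM with NC, 93.1, 86.2 and 95.9 with shRNA1, 132, 118 and 132 with shRNA2, and 209, 215 and 103 with shRNA3. All hairpin libraries were below NC, with shRNA3 library 3 close to shRNA1 and libraries 1 and 2 closer to NC. NDUFV1 fell by 1.47 ± 0.23 on the log2 scale with shRNA1 (SE, adjusted p = 0.00023) and by 0.99 ± 0.23 with shRNA2 (adjusted p = 0.0031), and with shRNA3 its value was -0.54 ± 0.22 (adjusted p = 0.062). It was called with all 3 hairpins when shRNA3 libraries 1 and 2 were left out.

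NDUFS4, an accessory subunit beside the electron-carrying module, had 41.9, 42.0 and 42.6 CPM with NC, 15.4, 19.9 and 19.1 with shRNA1, 18.8, 19.99 and 16.7 with shRNA2, and 20.9, 26.9 and 14.2 with shRNA3. No hairpin library reached the NC range. NDUFS4 fell by 1.22 ± 0.22, 1.19 ± 0.22 and 1.03 ± 0.21 on the log2 scale (SE), with an adjusted p of at most 0.0018. NDUFS3, a core subunit of the arm that links it to the quinone site, moved the other way, from 45.0, 45.3 and 41.5 CPM with NC to 79.4, 81.0 and 74.8 with shRNA1, 84.0, 78.5 and 84.1 with shRNA2, and 90.8, 104 and 83.5 with shRNA3. All hairpin libraries were above NC, while the hairpins overlapped in part, and its log2 fold changes were 0.84, 0.90 and 1.08 (SE 0.12 each, adjusted p of at most 0.00011). It shares 721 exonic bases with PTPMT1 and 234 with CELF1.

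NDUFS6, a zinc-binding accessory subunit, rose by 0.58, 0.70 and 0.85 on the log2 scale with shRNA1, shRNA2 and shRNA3 (adjusted p of 0.042, 0.020 and 0.0072). The shRNA3 call ended without libraries 1 and 2.

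The NDUFB genes encode accessory subunits of the membrane arm. NDUFB10 had 56.9, 59.8 and 53.1 CPM with NC, 142, 143 and 92.9 with shRNA1, 152, 145 and 161 with shRNA2, and 188, 218 and 162 with shRNA3. The hairpin libraries were all above NC, and the lowest of them was shRNA1 library 3. NDUFB10 rose by 1.15 ± 0.17, 1.43 ± 0.18 and 1.74 ± 0.18 on the log2 scale (SE), with an adjusted p of at most 0.00020. No other annotated gene shares its exonic bases.

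NDUFC1, a small subunit of the membrane arm, had 15.03, 17.1 and 16.7 CPM with NC, and between 38.1 and 51.7 CPM in the 9 hairpin libraries. The ranges lay far apart, and NDUFC1 rose by 1.27, 1.35 and 1.52 on the log2 scale (SE 0.14 each, adjusted p of at most 2.2e-05). NDUFC2, another subunit of that arm, fell by 0.59, 0.74 and 0.71 (adjusted p of at most 0.0019), from 112, 138 and 120 CPM with NC to 66.1 to 84.4 CPM in the hairpin libraries. These ranges did not overlap either.

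NDUFA1, a small subunit encoded on the X chromosome, had 24.3, 27.9 and 26.7 CPM with NC, 95.5, 90.0 and 84.6 with shRNA1, 63.3, 53.0 and 61.0 with shRNA2, and 102, 130 and 42.1 with shRNA3. All hairpin libraries were above NC, and shRNA3 library 3 was the lowest of them. NDUFA1 rose by 1.78, 1.17 and 1.80 on the log2 scale (SE 0.31 each, adjusted p of at most 0.0071), and with shRNA3 by 0.71 without libraries 1 and 2. It shares 341 of its 766 exonic bases with RNF113A on the opposite strand.

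NDUFB5 had 86.4, 89.6 and 83.9 CPM with NC and 27.9 to 40.9 CPM with the hairpins. The ranges did not overlap, and it fell by 1.48 ± 0.13, 1.28 ± 0.12 and 1.18 ± 0.12 on the log2 scale (SE, adjusted p of at most 1.6e-05). NDUFA10, an accessory subunit of the membrane arm, fell by 0.52, 0.58 and 0.44 (adjusted p of at most 0.0096). Its shRNA3 call was lost in a fit of only shRNA3 and NC (-0.36, adjusted p = 0.0893). NDUFB2, NDUFB8 and NDUFB9 rose with all 3 hairpins, by 0.79, 0.89 and 1.09, by 0.49, 0.61 and 0.79, and by 1.01, 0.93 and 0.64, with an adjusted p of at most 0.023. Without libraries 1 and 2 the shRNA3 values of NDUFB2 and NDUFB8 were 0.53 and 0.37, still called. The call of NDUFB9 with shRNA3 was lost with scaling by library totals. NDUFB2 shares 1239 of its 4447 exonic bases with BRAF on the opposite strand, and NDUFB8 675 of its 1999 with AL133352.1 on the same strand. Across the 10 NDUFB genes 5, 5 and 6 rose and 1, 2 and 1 fell with the 3 hairpins, and across the 12 NDUFA genes 2, 4 and 4 rose and 1, 1 and 1 fell, where 26.8%, 24.6% and 26.4% of all tested genes rose and 30.6%, 28.4% and 27.6% fell. Whether the subgroups differ from each other or from other genes was not tested.

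Not called with any hairpin were 9 nuclear members, NDUFS1, NDUFA2, NDUFA3, NDUFA5, NDUFA8, NDUFA9, NDUFA12, NDUFB6 and NDUFB7. Of the 14 that were called with all 3 in 1 direction, 12 were still called with all 3 without shRNA3 libraries 1 and 2, and 12 with scaling by library totals. Those lost were NDUFS6 and NDUFV3 in the first case and NDUFB9 and NDUFV3 in the second.

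Between hairpins, nuclear members were called only for shRNA1 against shRNA3, 9 of 34, where 30.0% of all tested genes were called. For shRNA1 against shRNA2 edgeR called 0 of 34 (5 at an unadjusted p under 0.05, 4 by DESeq2), against 12.3% of all genes, and for shRNA2 against shRNA3 0 of 34 (3 unadjusted, 0 by DESeq2), against 8.34%. Mitochondrial genes were called 2, 2 and 0 times of 13 in shRNA1 against shRNA2, shRNA1 against shRNA3 and shRNA2 against shRNA3. For the last, 10 had an unadjusted p under 0.05 and DESeq2 called 6. These counts moved when shRNA3 libraries 1 and 2 were left out. The share of all genes called between hairpins in that fit is not given here, so the moved counts cannot be set against other genes.

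NDUFS7, an iron-sulfur subunit at the quinone site, had the largest difference among the nuclear members called between hairpins. It shares 2693 of its 7533 exonic bases with AC005329.1 and 1007 with AC005329.3, both on the opposite strand. It had 69.5, 67.3 and 64.8 CPM with shRNA1 and 176, 173 and 91.8 with shRNA3, where libraries 1 and 2 were near each other and library 3 was closer to the NC libraries at 72.8, 81.6 and 70.7. NDUFS7 was lower with shRNA1 than with shRNA3, with a log2 difference of -1.13 ± 0.21 (SE, adjusted p = 0.0059). The differences of NDUFV1 (-0.93 ± 0.23, adjusted p = 0.014) and NDUFA13 (-0.77 ± 0.22, adjusted p = 0.026), an accessory subunit also known as GRIM-19, had the same sign. NDUFA13 had 129, 122 and 122 CPM with shRNA1 and 244, 264 and 127 CPM with shRNA3, so that library 3 of shRNA3 lay beside shRNA1. In a fit of only shRNA1 and shRNA3 0 of the 34 were called, with adjusted p of 0.117 for NDUFS7, 0.13 for NDUFV1 and 0.155 for NDUFA13. The differences without shRNA3 libraries 1 and 2 were -0.47, -0.18 and -0.04, and of these only that of NDUFS7 was called.

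Other nuclear genes of oxidative phosphorylation were read from lists by complex, and their counts stand beside 26.8%, 24.6% and 26.4% of all tested genes that rose and 30.6%, 28.4% and 27.6% that fell. Of 18 nuclear ATP synthase genes 8, 10 and 11 rose and 1, 1 and 0 fell with shRNA1, shRNA2 and shRNA3. With shRNA3 the counts were, in the fit without its libraries 1 and 2, 5 higher and 1 lower, beside 28.1% and 28.8% of all genes. ATP5F1B, the catalytic beta subunit, had 745, 739 and 683 CPM with NC and 1209 to 1668 CPM with the hairpins, and it rose by 0.84, 0.85 and 1.08 on the log2 scale (SE 0.15 each, adjusted p of at most 0.00055). The hairpin libraries did not overlap those of NC. ATP5ME and ATP5MJ, small membrane subunits, also rose with all 3, the first by 2.06, 1.52 and 2.15 (with shRNA3 0.95 without libraries 1 and 2) and the second with shRNA3 by 1.03 (0.57 without them).

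Of 9 nuclear complex III genes 5, 3 and 5 rose and 2, 1 and 1 fell. UQCRC1, a core subunit, rose by 0.65, 0.92 and 1.49, and CYC1, cytochrome c1, by 0.49, 0.81 and 1.15, while UQCR10 fell by 1.05, 0.69 and 0.64 on the log2 scale. Both UQCRC1 and CYC1 were highest in shRNA3 libraries 1 and 2, UQCRC1 with 621 and 635 CPM against 317 CPM in library 3. Without those libraries the shRNA3 values were 0.79 for UQCRC1, 0.59 for CYC1 and -1.24 for UQCR10, all called. Of 11 nuclear complex IV genes 4, 2 and 7 rose and 2, 1 and 0 fell, with COX7B and COX5A higher with all 3. The shRNA3 count fell to 2 higher and 2 lower without libraries 1 and 2, and for complex III it was 4 and 1. Of 4 complex II genes SDHC fell with all 3 hairpins, by 1.39, 1.19 and 1.02, and SDHD rose with all 3, by 0.59, 0.77 and 1.01 (0.53 with shRNA3 without libraries 1 and 2). Both encode membrane anchors of succinate dehydrogenase.

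Of 19 assembly factors of complex I 8, 5 and 4 rose and 4, 2 and 2 fell, and without shRNA3 libraries 1 and 2 the shRNA3 counts were 8 and 4. FOXRED1 had 10.2, 10.7 and 10.0 CPM with NC and 27.0 to 50.8 CPM with the hairpins, a rise of 1.52, 2.25 and 1.70 on the log2 scale (SE 0.19 each, adjusted p of at most 4.3e-05). The ranges lay apart. ACAD9 and NDUFAF3, which act in assembly as well, rose by 1.42, 1.56 and 1.38 and by 1.37, 1.62 and 1.66. NDUFAB1, the mitochondrial acyl carrier protein that is also a complex I subunit, rose by 0.96, 1.09 and 1.1.

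Of the 15 genes for transcription and replication of mitochondrial DNA 6, 5 and 2 rose and 2, 1 and 3 fell, and of the 17 for processing and stability of its RNA 9, 7 and 5 rose and 1, 0 and 2 fell. When shRNA3 libraries 1 and 2 were dropped, 7 rose and 1 fell with shRNA3 in the first list and 10 rose and 0 fell in the second. TOP1MT, the mitochondrial topoisomerase, had 11.3, 15.5 and 15.3 CPM with NC and 37.9 to 51.0 CPM with the hairpins. MTERF2, a member of the mitochondrial termination factor family, had 8.58, 11.1 and 12.2 CPM with NC and 3.93 to 6.60 CPM with the hairpins. Neither gene overlapped between the hairpin and NC libraries, and their log2 fold changes were 1.68, 1.59 and 1.61 for TOP1MT and -1.0, -1.07 and -1.08 for MTERF2 (adjusted p of at most 0.0055). The shRNA3 call of MTERF2 was lost without libraries 1 and 2 (-0.66, adjusted p = 0.0529).

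HSD17B10, a subunit of the mitochondrial RNase P that cuts tRNAs at their 5′ ends, had 44.8, 48.5 and 40.0 CPM with NC and 112 to 151 CPM with the hairpins, with adjusted p of at most 3.3e-06. ELAC2, which cuts at their 3′ ends, had 70.9, 67.1 and 59.1 CPM with NC, 201, 187 and 206 with shRNA1, 221, 213 and 224 with shRNA2, and 95.9, 87.6 and 202 with shRNA3. Both genes were above NC in all hairpin libraries, and ELAC2 was split within shRNA3, with library 3 beside shRNA1 and a log2 fold change of 0.97, or 1.65 without libraries 1 and 2. GRSF1, an RNA-binding protein of mitochondrial RNA granules, had 67.8, 68.1 and 156 CPM with shRNA3 and 42.9, 43.7 and 45.9 with NC, a rise of 1.14, or 1.85 without libraries 1 and 2.

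**Figure D5:**
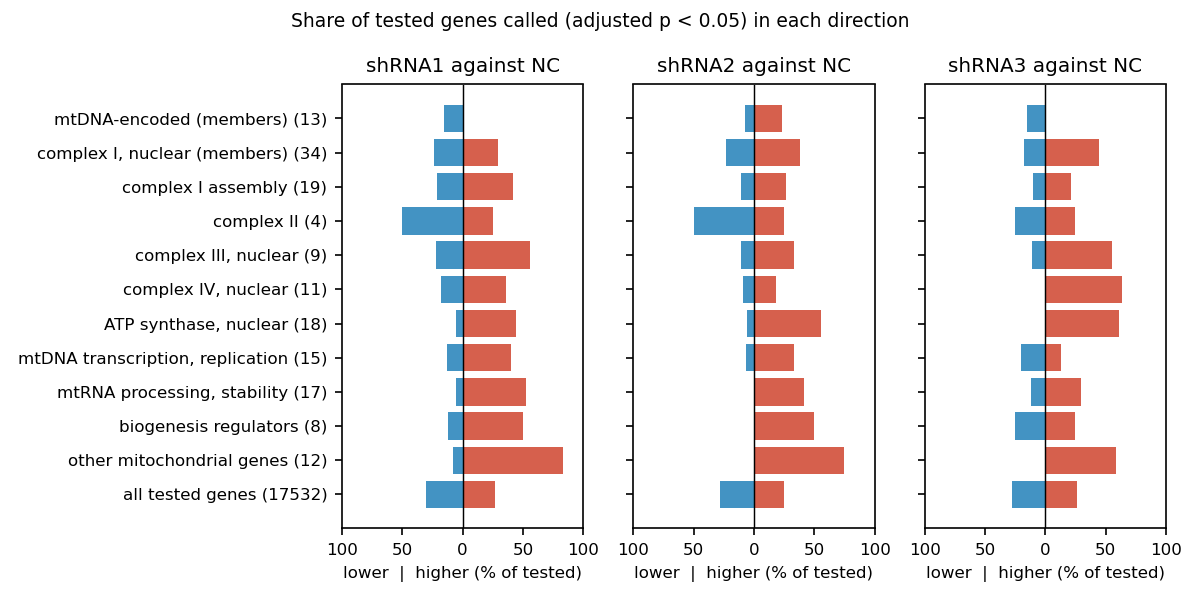
Share of tested genes called higher (red, right) or lower (blue, left) than NC with each hairpin, for the mitochondrial and nuclear members, the other gene lists and all tested genes; the number of tested genes is in parentheses. With shRNA3, 11 of 18 nuclear ATP synthase genes and 7 of 11 nuclear complex IV genes were higher, and 0 of 13 mitochondrial genes. These counts were 5, 2 and 3 without shRNA3 libraries 1 and 2.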

How the data were processed

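The table the authors deposited holds estimated counts, made from their reads and not scaled between libraries, and 13.8% of its values are not whole numbers (37.8% for the mitochondrial members, 51.7% for the nuclear ones). HISAT2, HTSeq 0.11.2 and GRCh38 are named in the submitters' processing notes, without their roles, and the annotation, filters and use of strand are not given in the sources used here. Values were rounded to whole numbers. Rows were matched to symbols for 60463 of 61044 IDs, and positions, overlaps, GC content and exonic lengths came from GENCODE on GRCh38; promoters came from RefSeq.

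Counts were scaled by TMM (factors 0.771 to 1.11) and filtered by edgeR's filterByExpr (minimum count 10, minimum total 15), which left 17532 genes. Two-sided quasi-likelihood F tests (R 4.3.3, edgeR 4.0.16, robust fit) were made in 1 model of the 4 groups over 12 libraries, which share 1 dispersion per gene (common BCV, the biological coefficient of variation, 0.289; residual df 8). Benjamini-Hochberg adjustment covered all tested genes, and genes with an adjusted p under 0.05 were called. CPM are TMM-scaled. A standard error is the size of the log2 fold change divided by the square root of F. The totals of 17287017 to 19567289 counts set the counting precision.

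Named were all 13 mitochondrial members, the nuclear members called with 1 sign for all 3 hairpins (up to 8 in each direction), up to 3 that differed most between hairpins, and up to 3 genes of each other list called with 1 sign for all 3, each by the largest change in the hairpin that changed them least. The members and lists were chosen with earlier results of these data known. Alternatives were DESeq2 size factors, library totals, no filter, a mean of at least 50 counts, DESeq2's Wald test (DESeq2 1.42.0), a replicate block, offsets for GC content and length, only the libraries compared, each library left out, and shRNA3 libraries 1 and 2 left out together.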

Additional observations from a re-analysis of the deposited data

How the results depend on the processing

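The 199 results for single genes gave 4167 values under the alternatives, of which 3880 kept their direction and their side of the threshold, 169 were no longer called, 82 became called and 36 changed sign. None of the 36 was called in the full fit. Mitochondrial genes called against NC by shRNA1, shRNA2 and shRNA3 (2, 4 and 2) were 6, 7 and 0 in a fit of only the 2 groups compared and 8, 8 and 7 without shRNA3 libraries 1 and 2. With shRNA3 they were 5 by library totals and by DESeq2's Wald test and 4 with the replicate block. With 1 library left out the counts ranged from 2 to 8, 1 to 8 and 1 to 9, and the nuclear counts from 15 to 24, 14 to 27 and 21 to 25. The highest mitochondrial counts were always without shRNA3 replicate 3, where 73.1%, 70.2% and 73.1% of all tested genes were called. The nuclear median was -0.0495 (library totals), -0.0586 (mean of at least 50 counts) and 0.12 (GC and length offsets) with shRNA1, 0.10 and 0.14 under the first 2 of these with shRNA2, and -0.10 by library totals with shRNA3; it ranged from -0.0258 to 0.0996, 0.20 to 0.28 and 0.23 to 0.48 with 1 library left out, and the mitochondrial median from -0.25 to 0.13, 0.07 to 0.29 and -0.59 to -0.33. With shRNA3 the mitochondrial median was -0.76 by library totals and 0.0294 without shRNA3 libraries 1 and 2. By library totals the median of all tested genes was -0.10 with shRNA1, -0.18 with shRNA2 and -0.35 with shRNA3. The per-length ratio was 21.2 (NC), 20.7 (shRNA1), 22.6 (shRNA2) and 12.9 (shRNA3) with the longest transcript. The mean ratio of sums ranged from 5.41 to 6.11, 5.12 to 5.54, 6.88 to 7.11 and 3.84 to 5.30 for NC, shRNA1, shRNA2 and shRNA3.

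Between shRNA1 and shRNA2, mitochondrial calls (2) were 1 by library totals, 10 in the fit of 2 groups, 7 without shRNA3 libraries 1 and 2, and 0 to 8 with 1 library left out. Nuclear calls (0) were 3 by library totals, 1 with the mean of 50 counts, 1 with GC and length offsets, 9 in the fit of 2 groups, 8 without shRNA3 libraries 1 and 2, 4 by DESeq2 and 0 to 8 with 1 library left out. Between shRNA1 and shRNA3, mitochondrial calls (2) were 1 with no filter, 0 in the fit of 2 groups, 0 without shRNA3 libraries 1 and 2, 4 by DESeq2 and 0 to 9 with 1 library left out, and nuclear calls (9) were 0 in the fit of 2 groups, 2 without shRNA3 libraries 1 and 2, and 2 to 24 with 1 library left out. Between shRNA2 and shRNA3, mitochondrial calls (0) were 2 with DESeq2 size factors, 1 by library totals, 2 with no filter, 2 with the mean of 50 counts, 1 with GC and length offsets, 6 by DESeq2's test and 0 to 9 with 1 library left out, and nuclear calls (0) were 0 to 21. The cause of these changes was not tested. The shares of all genes called between hairpins under these alternatives are not given here, so these counts cannot be set against other genes.

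Signs of genes not called changed as follows. Without shRNA3 libraries 1 and 2, shRNA3 values became 0.327 for MT-ND2, 0.177 for MT-ND3, -0.212 for MT-ND4, 0.0294 for MT-CYB and 0.184 for MT-ATP6. By library totals, MT-ND4 and MT-CO3 were -0.194 and -0.232 with shRNA3, MT-ND5, MT-CYB and MT-ATP8 -0.0831, -0.0797 and -0.0503 with shRNA2, and MT-ATP8 -0.0392 with shRNA1. With the mean of 50 counts, MT-ND5, MT-CYB and MT-ATP8 were -0.033, -0.0315 and -0.0025 with shRNA2, MT-ATP8 -0.0451 with shRNA1 and MT-CO3 -0.0717 with shRNA3. MT-ND4L with shRNA1 was 0.0121 with no filter, 0.0195 with the replicate block and 0.0839 with GC and length offsets. MT-CO3 with shRNA3 was -0.0105 with DESeq2 size factors, -0.0106 by its test and -0.069 with the replicate block. With 1 library left out, the values ranged from -0.248 to 0.288 for MT-ND4L and -0.132 to 0.249 for MT-ATP8 with shRNA1, from -0.0634 to 0.195 for MT-ND5, -0.0893 to 0.199 for MT-CYB and -0.0951 to 0.286 for MT-ATP8 with shRNA2, and from -0.594 to 0.277 for MT-CO3 with shRNA3.

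Libraries of 1 number did not pair: once group means were subtracted, their values correlated with a mean r of -0.0107 over 18 pairs (36 pairs of different numbers, 0.0044), none over 0.1, and 3 of 12 libraries correlated best with their own number. The replicate block gave 4 in place of 2 mitochondrial calls with shRNA3.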

Other observations

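Of 12 other mitochondrial genes (import, pores, chaperones, prohibitins and citrate synthase), 10 rose and 1 fell with shRNA1, 9 rose and 0 fell with shRNA2, and 7 rose and 0 fell with shRNA3, with medians of 0.88, 0.81 and 0.63 on the log2 scale, where 26.8%, 24.6% and 26.4% of all tested genes rose and 30.6%, 28.4% and 27.6% fell. With shRNA3, 10 rose and 2 fell without its libraries 1 and 2. PHB1, a scaffold protein of the inner membrane, had 125, 136 and 122 CPM with NC and 287 to 357 CPM in the 9 hairpin libraries, and its log2 fold changes were 1.35, 1.45 and 1.26 (edgeR adjusted p of at most 4.4e-06). HSPE1, the cochaperonin of the matrix, rose by 1.26, 1.38 and 1.09, and VDAC3, a pore of the outer membrane, by 1.59, 1.74 and 1.03 (1.74 with shRNA3 without libraries 1 and 2).

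Of 8 regulators of mitochondrial biogenesis 4, 4 and 2 rose and 1, 0 and 2 fell, with shRNA3 near the shares of all genes given above. In the fit without its libraries 1 and 2, 5 rose and 0 fell with shRNA3. GABPB1, a subunit of the ETS factor GABP, rose with all 3 hairpins by 1.19, 0.74 and 0.66, and YY1 by 0.72, 0.78 and 0.55 (adjusted p of at most 0.0049).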
